A study of Arabidopsis thaliana with 4 samples.

Results

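Trehalose 6-phosphate is the signal by which plant cells report their sucrose supply, and SnRK1 is the protein kinase that answers a shortage. The 9 genes described here are TPS1, the 7 class II genes TPS5 to TPS11, and KIN10, which encodes a catalytic subunit of SnRK1. They were matched by locus identifier among the 34133 loci of each library. All 9 were found, and all 9 had a 4-library mean of 1 FPKM or more, the filter on low values. Expression was given as FPKM (fragments per kilobase of transcript, scaled to the mapped fragments of the library).

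Libraries came from the first leaf of Arabidopsis thaliana plants aged 14 days on Murashige and Skoog medium with 1% sucrose. There were 2 libraries of the hybrid Col-0xAk-1 (genotype label Col-0xAa-0) and 2 of the inbred parent Ak-1 (genotype label Aa-0, and Ak-0 in the design text). The study concerns heterosis in biomass, where a hybrid outgrows its parents, and the comparison asks how the hybrid leaf differs from that of this parent. The labels do not say whether replicates came from separate plants or pools, nor which parent was the mother. Leaves of the Col-0 parent were not analysed here, so an effect of hybridity and a Col-0 allele with its own level cannot be told apart.

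TPS enzymes join glucose from UDP-glucose to glucose 6-phosphate, giving trehalose 6-phosphate, and trehalose phosphatases (TPP) remove the phosphate to leave trehalose. The level of trehalose 6-phosphate follows that of sucrose, and in growing tissue it inhibits SnRK1, which under carbon shortage switches on catabolic genes and slows growth. TPS1 is the main active synthase and is needed for embryos to mature. The class II proteins carry both a synthase-like and a phosphatase-like domain, but a catalytic role has not been established for most of them. Their transcripts respond to carbon status: those of TPS8 to TPS11 are known to rise in starved tissue, and those of TPS5 to rise with sugar. In the RefSeq TAIR10.1 annotation, taking the transcript with the longest coding sequence, TPS1 has 19 exons and a coding length of 2829 bases, whereas TPS5 to TPS11 have 3 to 5 exons and 2556 to 2604 coding bases. TPS1 and TPS6 to TPS10 lie on chromosome 1, TPS11 on chromosome 2, KIN10 on chromosome 3 and TPS5 on chromosome 4.

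Across all loci, the hybrid pair agreed less well than the Ak-1 pair. The median absolute difference of log2(FPKM + 1) between replicates was 0.23 in the hybrid and 0.14 in Ak-1 over 15905 tested loci. Steps between the lowest values put 1 fragment per kilobase of transcript at 0.050 and 0.0552 FPKM in the hybrid libraries and at 0.066 and 0.0593 FPKM in the Ak-1 libraries. The members therefore rest on an estimated 133 to 2915 fragments per kilobase, where counting error alone is at most 8.68% of a value. Leaf markers were high, with Rubisco activase (RCA) at 12814 and 13009 FPKM in the hybrid and 9084 and 9950 FPKM in Ak-1, although RBCS1A, for a Rubisco small subunit, was listed at 0 in both hybrid libraries against 20052 and 20897 FPKM in Ak-1. A listed 0 in these files therefore does not show that a gene was silent. The 4 shoot apex markers summed to 0.02 and 0.15 FPKM in the hybrid and 0.03 and 0.03 FPKM in Ak-1, with CLV3 and WUS listed at 0 throughout. The 4 root markers summed to 1.05 and 0.93 FPKM in the hybrid and 0.25 and 0.76 FPKM in Ak-1. Most of that sum was GL2 (1.05 and 0.73 FPKM in the hybrid, 0.25 and 0.58 FPKM in Ak-1). CASP1, CASP2 and COBL9 reached at most 0.13 FPKM. The 3 flower markers summed to 0.81 and 0.90 FPKM in the hybrid and 2.53 and 2.07 FPKM in Ak-1. Most of this was SEP3 (0.77 and 0.61 FPKM in the hybrid, 2.33 and 1.84 FPKM in Ak-1).

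Transcripts of the TPS family summed to lower levels in the hybrid. The 8 TPS members together had 197 and 286 FPKM in the hybrid libraries and 404 and 436 FPKM in the Ak-1 libraries. The gap was uneven between genes. TPS8 to TPS11 summed to 108 and 189 FPKM in the hybrid against 305 and 341 FPKM in Ak-1, while TPS5 to TPS7 summed to 66.8 and 78.8 FPKM in the hybrid against 84.2 and 79.8 FPKM in Ak-1. In the single genes, TPS10 passed the test as lower in the hybrid, none passed as higher, and 8 were not called (limma on log2(FPKM + 1) over all loci, with 0.05 as the limit of the Benjamini-Hochberg adjusted p). Over all tested loci 1.62% were called higher and 2.51% lower, 4.13% in all. Both hybrid libraries lay below both Ak-1 libraries for 6 of the 9 members and above them for 2, against 32.6% and 20.5% of all tested loci. In bulk leaf RNA, fewer cells of a type and less RNA per cell cannot be told apart.

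**Figure D1:**
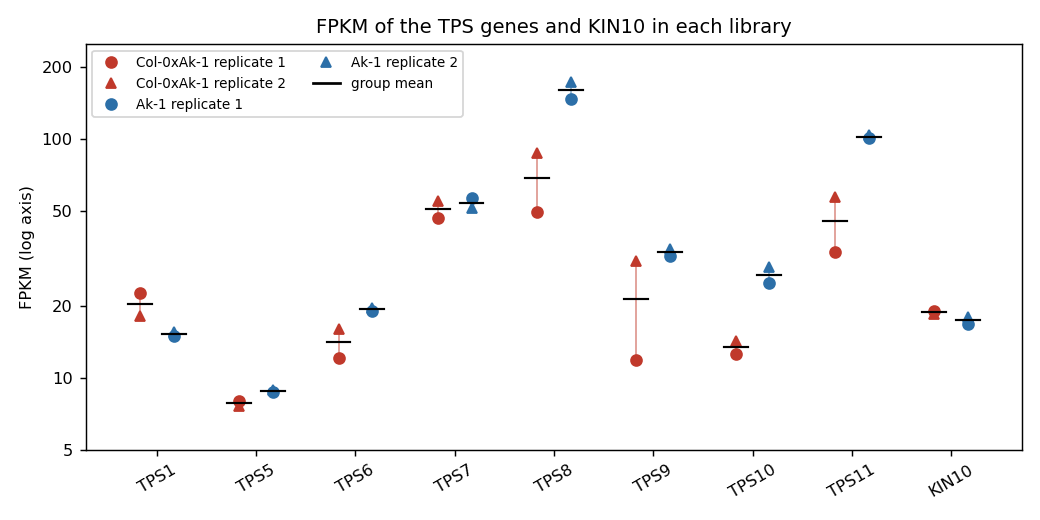
FPKM (log axis) of the 8 TPS genes and KIN10 in the hybrid Col-0xAk-1 (red) and in Ak-1 (blue), with circles for replicate 1, triangles for replicate 2 and a bar at the group mean. TPS8, TPS10 and TPS11 lie well below their Ak-1 values in both hybrid libraries, TPS9 does so in hybrid replicate 1 alone at 11.8 FPKM, and KIN10 stays between 16.8 and 19.1 FPKM.

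TPS1 (AT1G78580), the active synthase, had 22.7 and 18.1 FPKM in the hybrid libraries and 15.0 and 15.5 FPKM in the Ak-1 libraries. Both hybrid values were above both Ak-1 values, but the gap between the hybrid libraries was larger than that between the Ak-1 libraries. The hybrid mean was 20.4 ± 3.27 FPKM and the Ak-1 mean 15.2 ± 0.389 FPKM (SD, n = 2 each). The log2 difference was 0.39 (SE 0.16, 95% interval −0.02 to 0.80), and the gene was not called (limma adjusted p = 0.266). An overlap limits this value: RefSeq places 99 bases of TPS1 in common with its neighbour AT1G78570 and 429 with a non-coding locus on the opposite strand, and the libraries do not keep strand. Of the windows of 50 bases in the TPS1 transcript with the longest coding sequence, 7.96% also occur in those loci.

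The other class I genes were listed at or near 0. TPS2 and TPS3 were listed at 0 in all 4 libraries. TPS4 had 0 and 0.02 FPKM in the hybrid, against a listed 0 in each Ak-1 library. Their coding sequences are 75.6% to 77.4% identical to that of TPS1 over aligned bases, with no window of 50 bases in common with it.

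TPS5 (AT4G17770), a class II gene that acts in heat tolerance, had the lowest level of the 9 genes, with 7.98 and 7.63 FPKM in the hybrid and 8.75 and 8.91 FPKM in Ak-1. The hybrid values were below both Ak-1 values by a small margin (log2 difference −0.16, SE 0.13, 95% interval −0.49 to 0.17, limma adjusted p = 0.560). TPS6 (AT1G68020), which has a role in cell shape and trichome branching, had 12.1 and 16.1 FPKM in the hybrid and 19.0 and 19.7 FPKM in Ak-1. Here too the groups did not overlap, and the call was missed (log2 difference −0.44, SE 0.18, adjusted p = 0.249). The TPS6 locus shares 207 bases with AT1G68030 on the opposite strand. No window of 50 bases in the TPS6 transcript with the longest coding sequence occurs there. The TPS5 locus shares 128 bases with AT4G17780, also on the opposite strand. Of the windows in the TPS5 transcript with the longest coding sequence, 2.36% occur in AT4G17780, which limits the TPS5 value.

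TPS7 (AT1G06410), another class II gene, was the steadiest of the more abundant TPS genes. It had 46.7 and 55.1 FPKM in the hybrid and 56.4 and 51.3 FPKM in Ak-1, so that the groups overlapped. Its log2 difference was −0.08 (SE 0.15, 95% interval −0.48 to 0.31, adjusted p = 0.821), and the sign turned without hybrid replicate 1, to 0.0345.

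TPS8 (AT1G70290) was the most abundant TPS transcript in both groups. It had 49.4 and 87.4 FPKM in the hybrid libraries and 147 and 173 FPKM in the Ak-1 libraries. Every hybrid value was below every Ak-1 value, and the hybrid mean was 42.7% of the Ak-1 mean. The hybrid mean was 68.4 ± 26.9 FPKM and the Ak-1 mean 160 ± 18.3 FPKM. The log2 difference of −1.27 (SE 0.29, 95% interval −2.02 to −0.52) did not pass the test over all loci (adjusted p = 0.0966). Leaving out hybrid replicate 2 gave −1.67 and a call (adjusted p = 0.0225). No call was made with hybrid replicate 1 left out (−0.86), with Ak-1 replicate 1 left out (−1.38) or with Ak-1 replicate 2 left out (−1.15). Few of all loci were called without an Ak-1 library, so those fits cannot judge a single gene.

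TPS11 (AT2G18700), a gene with a known part in resistance to aphids, had 33.8 and 57.0 FPKM in the hybrid and 101 and 104 FPKM in Ak-1. The groups were far apart, with a hybrid mean at 44.4% of the Ak-1 mean, and the hybrid libraries again differed more than the Ak-1 libraries. The log2 difference was −1.20 (SE 0.26, 95% interval −1.87 to −0.53, adjusted p = 0.0869). With hybrid replicate 1 left out it was −0.83 (adjusted p = 0.0406), and with hybrid replicate 2 left out it was −1.57 (adjusted p = 0.0174). The log2 difference was −1.225 with Ak-1 replicate 1 left out and −1.18 with Ak-1 replicate 2 left out. Neither fit called TPS11, but few of all loci were called without an Ak-1 library.

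TPS10 (AT1G60140) was the one member that passed the test. Its hybrid replicates lay close together, at 1.13 times each other, and its Ak-1 replicates were 1.16 times each other. Its level fell to 12.6 and 14.2 FPKM in the hybrid, against 25.0 and 29.1 FPKM in Ak-1. The hybrid mean was 13.4 ± 1.16 FPKM and the Ak-1 mean 27.1 ± 2.87 FPKM, so that the hybrid mean was 49.5% of the Ak-1 mean. The log2 difference was −0.96 (SE 0.15, 95% interval −1.35 to −0.57, adjusted p = 0.0385). The difference kept its direction in all 13 alternative settings, from −1.07 to −0.86, but the call did not hold in 7 of them. With median-of-ratios scaling the adjusted p was 0.0517. The 7 include each fit with 1 library left out, and without an Ak-1 library few of all loci were called.

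TPS9 (AT1G23870) differed most between the hybrid libraries. It had 11.8 and 30.8 FPKM in the hybrid and 32.5 and 34.6 FPKM in Ak-1. Hybrid replicate 2 was close to the Ak-1 values, while hybrid replicate 1 was far below them. The log2 difference was −0.77 (SE 0.43, adjusted p = 0.389). It was −0.12 without hybrid replicate 1 (adjusted p = 0.605) and −1.43 without hybrid replicate 2 (adjusted p = 0.0218), so its size rests on 1 library. Leaving out Ak-1 replicate 1 gave −0.82, and leaving out Ak-1 replicate 2 gave −0.73. TPS9 is the nearest relative of TPS8 in the family, with 81.5% identity over aligned coding bases, and among the 21 pairs of class II genes the lowest identity was 66.4%. In the transcript with the longest coding sequence of each of TPS6 to TPS11, no window of 50 bases occurs in an annotated transcript of another locus. The other transcripts of these genes were not searched.

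**Figure D2:**
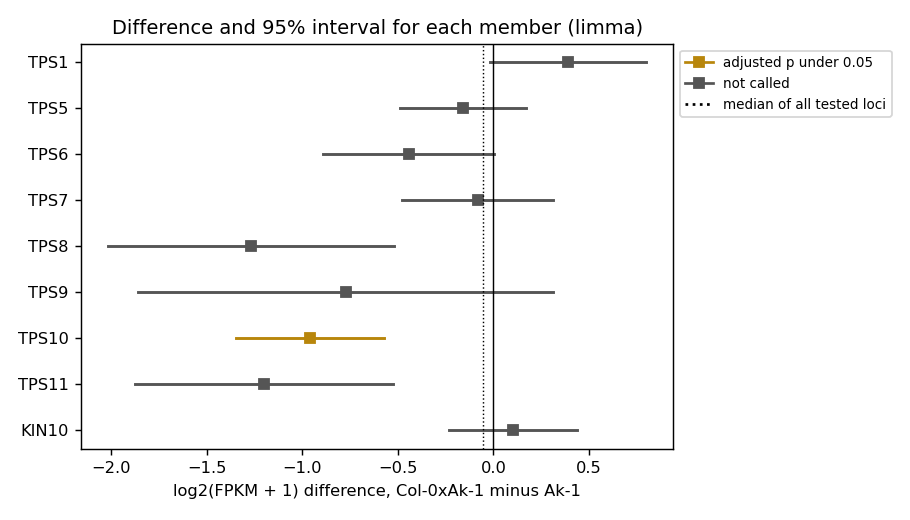
Difference of log2(FPKM + 1), Col-0xAk-1 minus Ak-1, for each member, with squares for the limma estimate, bars for its 95% interval and a dotted line at the median of all tested loci (−0.06). TPS10 is the called gene at −0.96, the intervals of TPS8 (−2.02 to −0.52) and TPS11 (−1.87 to −0.53) also lie below 0, and that of KIN10 (−0.23 to 0.44) spans 0.

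The order of levels differed between the groups. From high to low the Ak-1 means ran TPS8, TPS11, TPS7, TPS9, TPS10, TPS6, KIN10, TPS1 and TPS5, and no neighbours in that order had overlapping replicates. In the hybrid the order was TPS8, TPS7, TPS11, TPS9, TPS1, KIN10, TPS6, TPS10 and TPS5. There the replicates of neighbours overlapped for TPS8 and TPS7, for TPS7 and TPS11, for TPS9 and TPS1, for TPS1 and KIN10, and for TPS6 and TPS10. TPS10 thus stood above TPS6, KIN10 and TPS1 in Ak-1 and had a lower mean than all 3 in the hybrid.

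Shares of single genes in the summed TPS transcripts were compared without a test. TPS1 made up 11.5% and 6.32% of the summed TPS FPKM in the hybrid libraries and 3.70% and 3.56% in the Ak-1 libraries. TPS8 made up 25.0% and 30.5% in the hybrid and 36.4% and 39.7% in Ak-1, and TPS7 made up 23.7% and 19.2% in the hybrid and 14.0% and 11.8% in Ak-1. The summed class II FPKM was 7.67 and 14.8 times that of TPS1 in the hybrid and 26.0 and 27.1 times in Ak-1. TPS10, the called gene, made up 6.39% and 4.97% in the hybrid and 6.19% and 6.67% in Ak-1, and TPS9 made up 6.01% and 10.7% in the hybrid and 8.03% and 7.93% in Ak-1. The groups overlapped in the shares of TPS9 and TPS10. Shares of 1 sum depend on each other, so they do not show separate differences of single genes. TPS5 made up 4.05% and 2.665% in the hybrid and 2.16% and 2.04% in Ak-1. TPS6 made up 6.13% and 5.62% in the hybrid and 4.70% and 4.51% in Ak-1. Both had higher shares in the hybrid although their FPKM were lower there.

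**Figure D3:**
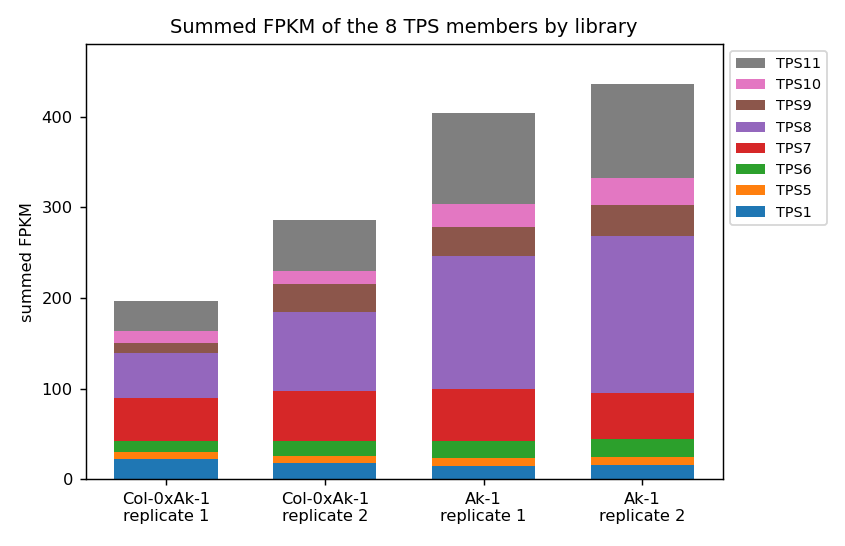
Summed FPKM of the 8 TPS members, stacked by gene, in the 2 Col-0xAk-1 libraries and the 2 Ak-1 libraries. The stacks reach 197 and 286 FPKM in the hybrid and 404 and 436 FPKM in Ak-1, and most of the gap lies in the TPS8 and TPS11 blocks.

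Since TPS8, TPS10 and TPS11 had hybrid means under 50% of the Ak-1 mean, the 250 bases before their annotated starts are shown, read 5′ to 3′ on the strand of the gene from the RefSeq TAIR10.1 genome by its own annotation. The submitters name TAIR10 and the deposited values carry no coordinates. Capitals mark the hexamer TATCCA, known as a sugar-responsive promoter element in rice amylase genes, on either strand. The window of TPS8 is at chr1:26474834-26475083 (minus strand), that of TPS10 at chr1:22181741-22181990 (minus strand) and that of TPS11 at chr2:8108648-8108897 (plus strand).
TPS8: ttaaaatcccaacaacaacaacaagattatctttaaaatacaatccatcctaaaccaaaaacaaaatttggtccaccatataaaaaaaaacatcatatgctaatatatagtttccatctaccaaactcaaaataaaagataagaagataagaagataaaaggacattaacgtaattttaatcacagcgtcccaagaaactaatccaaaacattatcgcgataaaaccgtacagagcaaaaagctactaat
TPS10: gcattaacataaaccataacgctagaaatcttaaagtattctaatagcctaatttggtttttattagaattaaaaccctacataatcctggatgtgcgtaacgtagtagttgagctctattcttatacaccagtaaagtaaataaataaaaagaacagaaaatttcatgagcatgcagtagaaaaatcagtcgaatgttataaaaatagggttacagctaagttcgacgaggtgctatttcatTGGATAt
TPS11: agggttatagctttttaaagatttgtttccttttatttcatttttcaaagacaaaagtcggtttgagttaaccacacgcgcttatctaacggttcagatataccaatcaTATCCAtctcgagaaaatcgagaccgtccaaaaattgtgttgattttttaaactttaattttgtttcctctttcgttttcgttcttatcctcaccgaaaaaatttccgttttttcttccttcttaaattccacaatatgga

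The hexamer begins 7 bases before the start in TPS10, where it reads TGGATA on the gene's strand, and 141 bases before it in TPS11. Counting the window from 250 bases before to 50 after the start on both strands, TATCCA was found in 4 of the 9 members (TPS6, TPS9, TPS10 and TPS11) and in 16.1% of 26692 protein-coding promoters. The G-box CACGTG, which bZIP factors bind, was found in TPS6 alone and in 7.79% of promoters. Its core ACGTG, which every CACGTG contains, was found in TPS6, TPS9 and KIN10 and in 26.9% of promoters. ACTCAT, a hexamer bound by bZIP factors in the promoter of a proline dehydrogenase gene, was found in TPS5 and TPS6 and in 14.7% of promoters. None of the 4 motifs was found in the windows of TPS1, TPS7 and TPS8.

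KIN10 (AT3G01090), the kinase itself, had similar values in all libraries. It had 19.1 and 18.5 FPKM in the hybrid and 16.8 and 18.02 FPKM in Ak-1, with both hybrid values above both Ak-1 values by less than the gap within Ak-1. The hybrid mean was 18.8 ± 0.389 FPKM and the Ak-1 mean 17.4 ± 0.834 FPKM. The log2 difference was 0.10 (SE 0.13, 95% interval −0.23 to 0.44, adjusted p = 0.726), so differences of up to 0.44 upward remain within the error. KIN11, the other catalytic subunit expressed in leaves, had 16.1 and 16.6 FPKM in the hybrid and 17.2 and 16.0 FPKM in Ak-1. Both kinases together had 35.1 and 35.1 FPKM in the hybrid and 34.0 and 34.0 FPKM in Ak-1. A further gene, KIN12, was listed at 0 in all libraries.

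The other subunits of SnRK1 also gave no call. None of the 6 tested subunits other than KIN10 was called in either direction (limma), 5 had a negative log2 difference, and their median was −0.10 beside −0.06 for all tested loci. At an unadjusted p under 0.05 none of the 6 passed either, against 20.2% of all tested loci. KINBETA1, for a beta subunit whose gene is known to be repressed by sugar, had the smallest adjusted p of the 6, at 0.668. It had 42.9 and 82.4 FPKM in the hybrid and 69.8 and 76.5 FPKM in Ak-1, so that hybrid replicate 1 alone was low.

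Downstream of the synthases, trehalase was lower in the hybrid. TRE1, whose product splits trehalose into glucose, fell to 3.27 and 2.82 FPKM in the hybrid, against 7.86 and 8.57 FPKM in Ak-1. Replicates were close and the groups far apart (log2 difference −1.19, SE 0.15, adjusted p = 0.0201). The log2 difference was −1.245 without Ak-1 replicate 1 and −1.13 without Ak-1 replicate 2, with no call in either fit. Few of all loci were called without an Ak-1 library, so those fits cannot judge the call on TRE1. Of the 6 tested phosphatase and trehalase genes TRE1 was the 1 called lower and none was called higher, against 2.51% and 1.62% of all tested loci. The median of the 6 was 0.25. TPPH, a phosphatase gene chosen after its values were seen, had 13.4 and 18.4 FPKM in the hybrid and 5.21 and 7.19 FPKM in Ak-1, with a log2 difference of 1.23 that narrowly missed the call (adjusted p = 0.0539). TPPF and TPPG were not analysed here.

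Among regulators that act on SnRK1, 3 genes were tested. Of these 1 was called lower and none higher, against 2.51% and 1.62% of all tested loci. The called gene was PP2CA, for a phosphatase of abscisic acid signalling that also inactivates SnRK1. It fell to 79.6 and 69.4 FPKM in the hybrid, against 136 and 168 FPKM in Ak-1 (log2 difference −1.01, SE 0.17, adjusted p = 0.0468, a call lost in 8 of 13 alternatives such as quantile normalization with 0.0747). The log2 difference was −0.92 without hybrid replicate 2, −1.17 without Ak-1 replicate 1 and −0.86 without Ak-1 replicate 2. None of these fits called PP2CA, but few of all loci were called without an Ak-1 library. The median of the 3 was −0.90. GRIK2 was not analysed here.

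The listed genes that SnRK1 is known to switch on under carbon starvation all had negative log2 differences, hybrid minus Ak-1. The list was chosen with earlier results of these data known, so its shared direction is a description only. Of 12 genes tested, 1 was called lower and none higher, against 2.51% and 1.62% of all tested loci. The median of the 12 was −0.78 beside −0.06 for all tested loci. Both hybrid libraries were below both Ak-1 libraries for 8 of the 12, against 32.6% of all loci. DIN1 (SEN1), a dark-inducible gene, was the called one, with 62.1 and 118 FPKM in the hybrid and 283 and 355 FPKM in Ak-1 (log2 difference −1.88, adjusted p = 0.0499, a call lost in 8 of 13 alternatives such as a pseudocount of 0.1 with 0.0533). Without Ak-1 replicate 1 its log2 difference was −2.04, and without Ak-1 replicate 2 it was −1.715. Neither fit called DIN1, but few of all loci were called without an Ak-1 library. DIN6 (ASN1), for asparagine synthetase and chosen after its values were seen, had the largest difference of the list. It had 9.55 and 23.9 FPKM in the hybrid and 67.8 and 61.0 FPKM in Ak-1 (log2 difference −2.01, adjusted p = 0.0717). The shared sign did not hold in hybrid replicate 2 alone. There DIN4, IVD, BGAL4 and ATG8E, named after their values were seen, had 16.4, 32.3, 19.6 and 77.7 FPKM. Their Ak-1 means were 16.3, 27.0, 18.9 and 76.9 FPKM. Relative to the Ak-1 mean, hybrid replicate 1 had a list median of −1.17 and hybrid replicate 2 one of −0.35. For the 8 TPS members, hybrid replicate 1 had a median of −0.84 and hybrid replicate 2 one of −0.22.

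**Figure D4:**
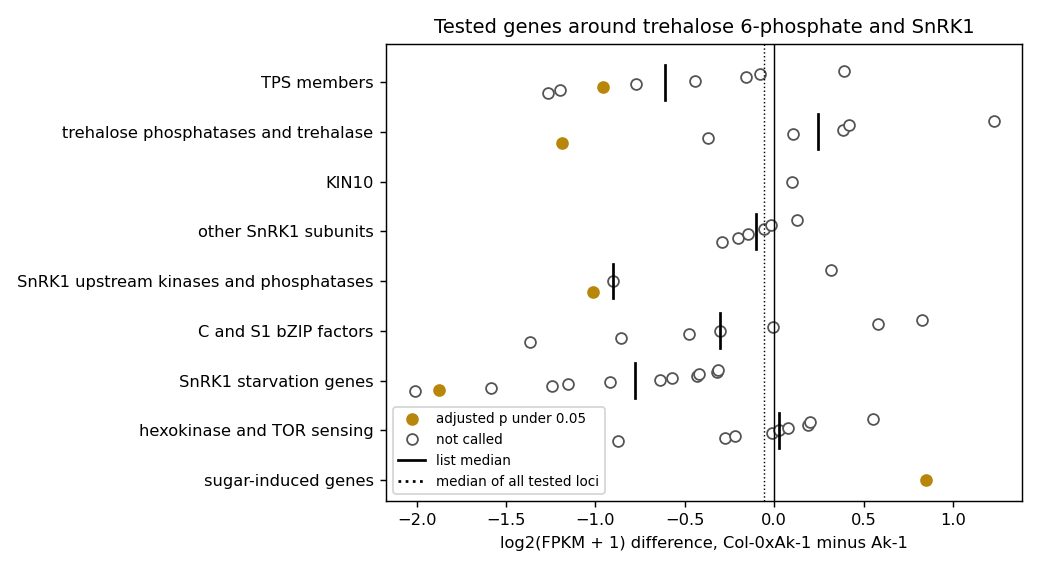
Difference of log2(FPKM + 1), Col-0xAk-1 minus Ak-1, for each tested gene of 9 groups around trehalose 6-phosphate and SnRK1, with filled circles for called genes, solid ticks for list medians and a dotted line at the median of all tested loci (−0.06). All 12 starvation genes lie below 0 with a median of −0.78, while the other SnRK1 subunits lie between −0.29 and 0.13. The lists were chosen with earlier results of these data known.

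The bZIP factors of groups C and S1, which work downstream of SnRK1 at starvation genes, had log2 differences of both signs. None of 7 tested was called in either direction by limma, and 5 passed an unadjusted p under 0.05, which 20.2% of all tested loci did. The smallest adjusted p was that of BZIP2, at 0.0784, with 67.4 and 78.6 FPKM in the hybrid and 36.5 and 45.2 FPKM in Ak-1 (log2 difference 0.83). BZIP1, chosen after its values were seen, had 13.6 and 28.4 FPKM in the hybrid and 48.2 and 56.8 FPKM in Ak-1 (log2 difference −1.37, adjusted p = 0.118). The median was −0.30. BZIP11 was not analysed here.

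The glucose sensor hexokinase and the TOR kinase pathway, which promotes growth when sugar is ample, gave no call among 9 tested genes in either direction by limma, and 2 passed an unadjusted p under 0.05, a share near the 20.2% of all tested loci. The median was 0.03. S6K2, for a kinase that TOR activates, had the smallest adjusted p, at 0.0941 (log2 difference −0.87). It had 3.16 and 3.92 FPKM in the hybrid and 6.16 and 8.58 FPKM in Ak-1. Its more abundant relative S6K1, chosen after its values were seen, went the other way (log2 difference 0.55, limma adjusted p = 0.179). S6K1 had 77.3 and 96.85 FPKM in the hybrid and 63.1 and 54.5 FPKM in Ak-1. TOR itself had 9.26 and 10.2 FPKM in the hybrid and 8.38 and 8.25 FPKM in Ak-1. Of 4 sugar-induced genes only APL3, for a subunit of the first committed enzyme of starch synthesis, had enough signal to be tested. It rose to 9.51 and 9.77 FPKM in the hybrid, against 4.54 and 5.32 FPKM in Ak-1 (log2 difference 0.85, SE 0.14, adjusted p = 0.0440, a call lost in 8 of 13 alternatives such as a mean of at least 5 FPKM with 0.0602). With any 1 library left out APL3 was not called, at a log2 difference of 0.75 to 0.94.

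Some other measures also differed between the groups. The 10 genes of a rapid stress list, which handling can induce, summed to 86.4 and 360 FPKM in the hybrid and 620 and 882 FPKM in Ak-1. Of the 10, 3 were called lower and none higher, against 2.51% and 1.62% of all tested loci. Their log2 differences were negative for 9 and positive for 1. The 18S ribosomal RNA locus AT3G41768 had 1670 and 4446 FPKM in the hybrid and 10547 and 7145 FPKM in Ak-1. A pair of phloem markers, SUC2 and APL, summed to 220 and 221 FPKM in the hybrid and 164 and 190 FPKM in Ak-1. Neither was called (limma adjusted p = 0.295 for SUC2 and 0.583 for APL). The part of these measures in the differences of the TPS genes was not tested.

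The genes most like TPS10 over the 4 libraries were found by the distance between log2(FPKM + 1) profiles centred on their means, among 15476 nuclear protein-coding loci. The nearest was AT5G50450 (distance 0.0501), with 0.96 and 1.27 FPKM in the hybrid and 2.94 and 3.47 FPKM in Ak-1. At such low levels the added 1 shrinks the difference, so its likeness to TPS10 holds on this scale only. Next came FC1, for a ferrochelatase of heme synthesis (distance 0.0631), with 8.50 and 10.3 FPKM in the hybrid and 17.5 and 20.2 FPKM in Ak-1. PMT5, for a polyol and monosaccharide transporter, followed (distance 0.0709), with 12.3 and 13.1 FPKM in the hybrid and 24.5 and 28.2 FPKM in Ak-1. With 4 libraries such likeness is a description only.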

How the data were processed

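Each of the 4 libraries has 1 deposited table of FPKM, normalized by the authors and rounded to 2 decimals. Per the labels' protocols, total RNA was turned into libraries with Illumina's TruSeq RNA kit V2, whose reads carry no strand. Per the submitters' processing notes, the build was TAIR10 and the tools included edgeR 3.12.0, Cufflinks 2.0.2 and TopHat, also listed as TopHat2 2.0.8b. The role of each tool and the handling of reads with several matches are not given in the sources used here. TAIR10 is the Col-0 genome, so poorer matching of Ak-1 reads and lower expression in Ak-1 cannot be told apart. Since these are not counts, count models were not applied.

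Hybrid minus Ak-1 was tested on log2(FPKM + 1), two-sided and with no covariate, by limma 3.58.1 (R 4.3.3, eBayes with variance trended on the mean) in the 15905 loci whose mean reached 1 FPKM. Benjamini-Hochberg adjustment ran over all of them. Every adjusted p in the text is limma's, and one given for an alternative setting was adjusted over the loci tested under that setting. The log2(FPKM + 1) scale understates the change of low genes. Nothing says that replicates came from separate plants, so p-values measure only the spread between libraries, which may be technical. The procedure was also run on simulated data that gave both groups the same spread. That run therefore does not cover the wider spread of the hybrid pair, and no result here rests on it.

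All 9 members are named. From each other list up to 4 called genes are named, or else the gene with the smallest adjusted p; other genes are said to have been chosen after their values were seen. Members and lists were chosen with earlier results of these data known. Of the list genes, 4 were not analysed here. Names, overlaps, coding identity and promoters came from RefSeq TAIR10.1, to which 31416 of 34133 loci matched, with Python 3.11.15 and Biopython 1.88. Fragments per kilobase were estimated from the steps between low FPKM of loci with 1 transcript of 1500 to 6000 bases, so they are approximate. Alternatives covered pseudocount, filter, scaling, variance trend, replicate block and each library left out.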

Additional observations from a re-analysis of the deposited data

How the results depend on the processing

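Members rest on an estimated 133 fragments per kilobase or more, and 2 libraries per group limit the precision. A library left alone in its group was assumed to vary like the other group. Without either Ak-1 library the spread came from the hybrid pair alone, and few of all loci were called. A call lost there cannot be read as a weakness of a single gene. TPS1, TPS5, TPS6 and KIN10 kept their direction and stayed uncalled in all 13 alternatives; TPS8, TPS9 and TPS11 kept their direction, and TPS7 reversed once, to 0.0345 without hybrid replicate 1 (−0.20 to 0.0345 over left-out libraries). TPS10 lost its call with no filter (−0.96, adjusted p = 0.0704), with median-of-ratios scaling (−0.90, 0.0517), with the replicate block (−0.96, 0.0599) and without any 1 library (−1.07 to −0.86). TPS8 was called without hybrid replicate 2 (−1.67; range over left-out libraries −1.67 to −0.86), as was TPS9 (−1.43; −1.43 to −0.12), and TPS11 without either hybrid replicate (−1.57 and −0.83). Calls among the 9 members numbered 0 to 3 with a library left out and 0 with no filter, median-of-ratios scaling or the replicate block; the 1 call without hybrid replicate 1 was TPS11, not TPS10.

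Over all loci, 257 were called higher and 400 lower. With a mean of at least 5 FPKM these became 92 and 206, with no filter 173 were lower, and with a library left out 3 to 619 were higher and 1 to 899 lower. Leaving out either Ak-1 library left 3 higher and 1 lower. The trehalose phosphatase and trehalase list gained 1 higher call with quantile normalization or the replicate block, had 0 to 1 higher and 0 to 1 lower with a library left out, and had 0 lower with no filter. The call on PP2CA was lost, leaving 0 for its list, with no filter, a mean of at least 5 FPKM, median-of-ratios scaling, quantile normalization, the replicate block and 0 to 1 with a library left out. Starvation genes had 0 lower with a pseudocount of 0.1, no filter, a mean of at least 5 FPKM, median-of-ratios scaling, TPM rescaling or no variance trend, 2 with the replicate block, and 0 to 5 with a library left out. The bZIP list had 0 to 2 lower with a library left out. APL3 lost its call (0 for its list) with no filter, a mean of at least 5 FPKM, TPM rescaling, the replicate block and any library left out.

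The replicate numbers are not stated to pair libraries. Deviations of same-numbered libraries from their group means correlated at r = −0.138 over 15905 loci, and the replicate block gave 200 higher and 365 lower calls.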

Other observations

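Several starvation genes split the hybrid libraries as TPS9 did, with hybrid replicate 2 near the Ak-1 level. SEN5 had 36.9 and 208 FPKM in the hybrid and 243 and 290 FPKM in Ak-1. BGAL4, for a beta-galactosidase, had 4.35 and 19.6 FPKM in the hybrid and 18.3 and 19.4 FPKM in Ak-1. IVD, for an enzyme of leucine breakdown, had 14.2 and 32.3 FPKM in the hybrid and 27.8 and 26.2 FPKM in Ak-1. These 3 were chosen after their values were seen, and the difference between the hybrid libraries was not tested. Hybrid replicate 2 was 1.13 times replicate 1 for TPS10, against 2.60 times for TPS9. Close hybrid replicates were not particular to TPS10. The same ratio was 0.956 for TPS5, 1.18 for TPS7, 0.971 for KIN10 and 0.894 for the starvation gene DIN3. It was 1.77 for TPS8 and 1.69 for TPS11.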
